A study of Mus musculus with 14 samples.

Results

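The change from embryonic stem cells (ESCs) to neural precursor cells (NPCs) was examined where CTCF had been targeted for removal in both cell types. Promoter contacts were compared between the NPC list and the ESC list made after auxin. A loop was a pair of 10 kb bins, and loops were shared when both bins were equal. The 2 lists called with MAPS held 58837 distinct loops, of 137221 in the 4 MAPS lists of the study (the 111028 loops of the 2 lists without auxin overlap these). A second caller, FitHiChIP, gave another list for each group.

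The study profiled 14 samples of F123 mouse cells by H3K4me3 PLAC-seq, which joins DNA ends that lie close together in the nucleus and enriches the pairs with an antibody to a promoter mark. All groups used here carried CTCF-AID, CTCF fused to a degron that marks it for destruction when auxin is added. The ESC auxin group was ESCs harvested 48 h after auxin was added, the ESC control group had auxin for 0 h, and the NPC auxin and NPC control groups were NPCs on day 4 of differentiation with and without auxin. Each group had 2 samples and 1 deposited list per caller. Auxin was added as 1 µl of a 500 mM stock per ml of medium. How long the NPCs had been in auxin, whether the line was 1 clone, whether the 2 samples were separate cultures and whether they were pooled are not given in the sources used here. CTCF protein is not measured in any list, so the degree of depletion was not checked here.

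CTCF binds DNA at an oriented motif and stops cohesin, the ring complex that extrudes chromatin loops, so that paired CTCF sites anchor many loops and domain borders. Promoters also contact enhancers and other promoters, and the genes whose promoters carry H3K4me3 change as stem cells leave pluripotency. In a neural lineage, Sox, Pou and homeobox genes and the Hedgehog, Wnt and retinoic acid pathways set cell identity and position.

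Total contacts were higher in NPC auxin than in ESC auxin. FitHiChIP's total was 48307867 contacts in ESC auxin and 59961568 in NPC auxin, a ratio of 1.24. The H3K4me3 marks in the lists were read against marker genes. Of 8 ESC markers, 7 had a marked promoter bin in the ESC lists and 7 in the NPC lists, and of 9 neural precursor markers 8 were marked in each. Reads over the bin were compared per total contacts. They were lower in NPC auxin for 4 of the 5 ESC markers with reads in both lists (median log2 difference -0.57) and higher for 7 of 8 neural precursor markers (median 0.63). Over all protein-coding genes they were higher for 4440 of 5386 (median 0.30), so the counts of higher markers lie near that share. Sox17, Foxa2 and Gata6, the endoderm markers, also had more reads in NPC auxin (0.57 to 1.25 on the log2 scale). Summed over the markers of a type, MAPS loops in ESC auxin and NPC auxin numbered 11 and 16 for ESC and 36 and 43 for neural precursor markers. They numbered 36 and 68 for endoderm, 2 and 24 for neural crest and 28 and 27 for trophoblast. For mesoderm they numbered 2 and 7, for neurons 1 and 0 and for glia 0 and 3. The promoter bins of Fabp7, Elf5, Rbfox3 and Dcx had 0 loops in each of the auxin lists. The part of other cell types in the results was not tested.

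With auxin in both cell types, the NPC list was longer. MAPS gave 27610 loops in ESC auxin and 41667 in NPC auxin, so NPC auxin had 150.9% as many. NPC auxin had more loops on 19 of 19 autosomes, with ratios from 1.23 to 2.00. FitHiChIP gave 22705 and 24836 loops, 109.4%.

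Of the ESC auxin loops, 10440 or 37.8% (exact 95% Clopper-Pearson interval 37.2 to 38.4) were called again in NPC auxin, and these were 25.1% (24.6 to 25.5) of the NPC auxin loops. These intervals cover counting error only and are too narrow, since loops of neighbouring bins are not independent. Between the control lists the shares were larger, 50.3% of ESC control loops and 34.5% of NPC control loops. Those lists were also longer, with 56714 and 82861 loops, and the part of list length in the shares was not tested. Sharing followed the strength of the call. In the fifth of ESC auxin loops with the lowest FDR 59.3% were also in NPC auxin, against 24.2% in the fifth with the highest. For NPC auxin loops the corresponding shares were 50.6% and 12.2%, so the loops with the weakest calls were the least often shared.

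The loops listed in 1 cell type after auxin were looked up in the control lists. Of 31227 loops in NPC auxin only, 46.3% were in NPC control and 21.9% in ESC control. Loops found in NPC control and not in ESC control were 28.8% of them, while 4.42% showed the opposite cell type. Of 17170 loops in ESC auxin only, 36.8% were in ESC control and 29.3% in NPC control. For these the 2 shares were less apart, with 18.2% in ESC control and not NPC control, and 10.8% the other way round. The NPC control list was the longer, with 82861 loops against 56714 in ESC control, so any loop had more to match there. The part of list length in these shares was not tested. Seen from the untreated side, 16.6% of the 54314 loops in NPC control and not ESC control were again NPC only after auxin, and 3.40% became ESC only. For the 28167 loops in ESC control and not NPC control, 11.1% were again ESC only and 4.90% became NPC only. Most loops of 1 cell type had an anchor marked in the other: 93.3% of the loops in NPC auxin only had an anchor marked as an H3K4me3 peak bin in the ESC lists, and 85.8% of the ESC-only loops had one marked in the NPC lists. Each cell type has 1 set of peak marks for both treatments, so the marks do not show H3K4me3 after auxin.

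Loops were in excess in NPC auxin mainly above 200 kb, and the ratio grew with distance. Below 100 kb there were 2013 loops in ESC auxin and 2119 in NPC auxin, a ratio of 1.05 (95% interval 0.990 to 1.12), and from 100 to 200 kb 7763 and 8693 (1.12). From 200 to 500 kb there were 15051 and 22280, a ratio of 1.48 (1.45 to 1.51), the class with the most added loops. From 500 kb to 1 Mb there were 2783 and 8575, a ratio of 3.08 (2.95 to 3.22). Loops of this longest class were 10.1% of the ESC auxin list and 20.6% of the NPC auxin list. The median distance was 240 kb in ESC auxin and 300 kb in NPC auxin, and it was larger in NPC auxin on 19 of 19 autosomes, by 20 to 95 kb. Of the NPC auxin loops from 500 kb to 1 Mb, 14.2% were also in ESC auxin, against 33.6% of those from 100 to 200 kb.

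In the control lists the NPC to ESC ratios were 1.24, 1.20, 1.45 and 2.72 from the shortest to the longest class, so the 2 shortest stood in the other order, with medians of 230 and 260 kb. The ratio with auxin was above that of the controls in the longest class and below it in the 2 shortest. FitHiChIP gave the opposite direction for the median, 500 kb in ESC auxin and 470 kb in NPC auxin. FitHiChIP loops reached 2000 kb, and MAPS loops 1000 kb. By FitHiChIP, loops of 500 kb and over in NPC auxin numbered 105.2% of those in ESC auxin, against 308.1% by MAPS. From 500 kb to 1 Mb the FitHiChIP ratio was 1.10. In that caller, 16 windows of 1 Mb held 31.8% of the ESC auxin and 19.2% of the NPC auxin loops. Outside them the FitHiChIP medians were 290 and 360 kb, and the ratio from 500 kb to 1 Mb was 1.49.

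**Figure D1:**
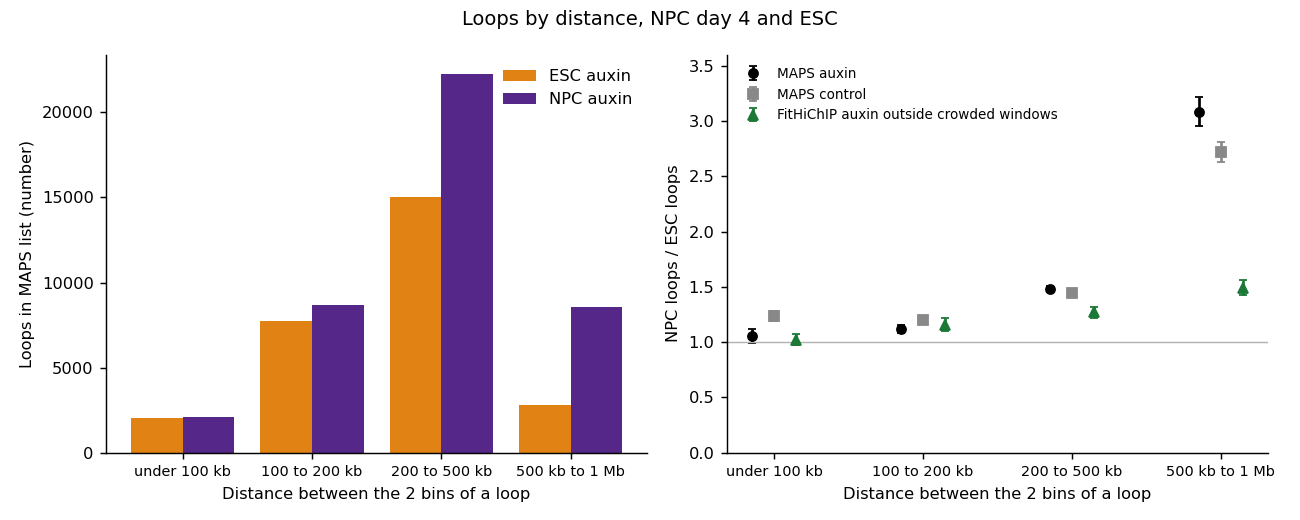
Loops by distance between their 2 bins. The left panel gives the number of MAPS loops in ESC auxin and NPC auxin, and the right panel the NPC to ESC ratio (points) with its 95% interval (bars, counting error only) for the MAPS auxin lists, the MAPS control lists and the FitHiChIP auxin lists outside the 16 crowded windows. The ratio rises from 1.05 below 100 kb to 3.08 from 500 kb to 1 Mb in the MAPS auxin lists.

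Peak bins at both anchors were less common in NPC auxin by MAPS, 26.6% against 36.2% of loops in ESC auxin, and the share was lower on 19 of 19 autosomes. FitHiChIP gave the opposite, with NPC auxin 10.7 percentage points higher, and 4.10 points higher outside the crowded windows. The direction of this share therefore rests on the caller.

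Promoters were then ranked by their own loops. A protein-coding gene was given the 10 kb bin of its RefSeq start or, where no start was listed, of the gene boundary that lay in a marked bin, which need not be the start. Of the genes named below this holds for Bmp2, Shh, Rdh10, Klf5, Irx6, Etv4, Dlx5 and the clustered protocadherins among others, and 405 of the ranked bins rest on such genes alone (66 of the higher and 70 of the lower). With this rule 1805 promoter bins had 10 or more loops in the 2 MAPS auxin lists summed. The relative change was log2 of NPC auxin loops plus 1 over ESC auxin loops plus 1, minus log2 of the ratio of list totals (0.59), so that 0 means a bin kept pace with its list. With 1 list per group there is no test, and a bin was called when its relative change reached 1 in size. NPC auxin was called higher at 349 bins (19.3%) and lower at 242 (13.4%). In FitHiChIP, 322 of the 349 and 206 of the 242 had a change of the same sign, against 1124 of all 1805 bins (62.3%). Equal FitHiChIP counts give a change below 0, since log2 of that caller's ratio of list totals was 0.13.

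Within each list, the higher promoters had longer loops than the lower ones. The 349 higher bins had 782 loops in ESC auxin and 5702 in NPC auxin, and the 242 lower bins 2360 and 1142. In ESC auxin 24.7% of the loops at higher bins and 7.37% of those at lower bins spanned 500 kb or more, against 12.6% over all 1805 bins. In NPC auxin the shares were 36.5%, 7.01% and 24.1%. Another promoter bin was the partner in ESC auxin for 23.0% of loops at higher, 31.5% at lower and 22.5% at all bins, so the higher bins were near the rest in that list. In NPC auxin these shares were 13.3%, 29.2% and 16.8%.

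Nearly all of these promoters were marked in both cell types, 339 of the 349 higher and 229 of the 242 lower bins. So were 1768 of all 1805 ranked bins, and where a gene had several candidate bins a marked one was taken first. Reads over the bin rose more at the higher than at the lower bins, and at the lower bins their median did not fall with the loops. Per total contacts, the reads were higher in NPC auxin by a median of 0.66 on the log2 scale at the 252 higher bins with reads in both lists, by 0.13 at 216 lower bins and by 0.35 at all 1580 such bins. Across those 1580 bins Pearson's r between the change in loops and the change in reads was 0.45 and Spearman's rho 0.44, as a description of bins that share libraries. The part of the reads in the changes was not tested.

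The same promoters often differed between the cell types with CTCF present. In the control lists 198 of the 349 higher bins were also called higher, against 19.3% of all 1805 bins, and 76 of the 242 lower bins were also called lower, against 8.81%. The control change had the opposite sign at 29 of the 349 and 47 of the 242. Across the 1805 bins Pearson's r between the auxin and the control change was 0.64 and Spearman's rho 0.63, a description, since bins share libraries and the peak marks of each cell type.

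**Figure D2:**
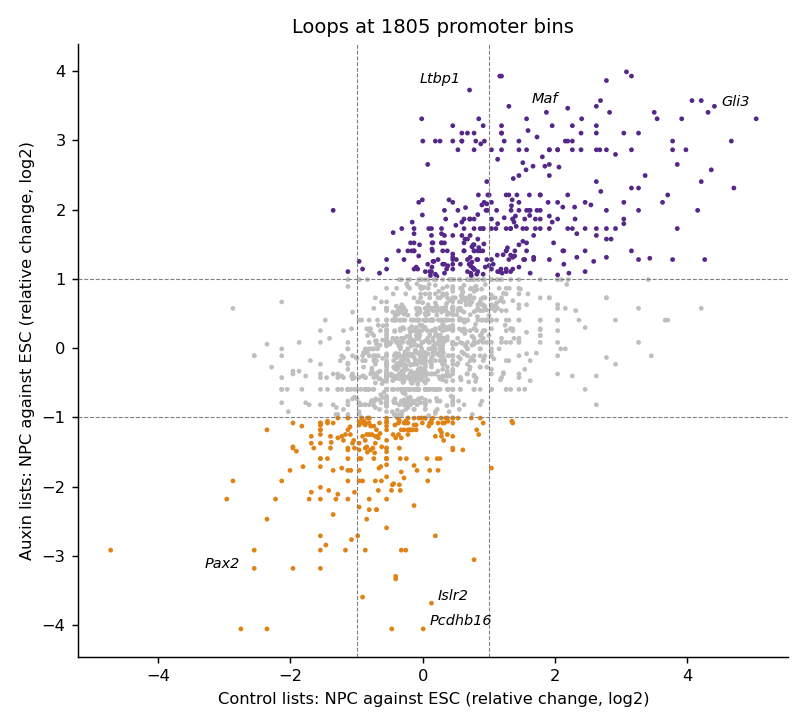
Relative change in loops, NPC against ESC, at the 1805 ranked promoter bins (10 or more loops after auxin). The vertical axis is the auxin lists and the horizontal axis the control lists, both log2. Purple bins are the 349 called higher and orange bins the 242 called lower after auxin, and dashed lines stand at 1 and -1. Higher bins such as Gli3 and Maf lie to the right of 1, while Pcdhb16 and Islr2 lie low with control changes of 0.01 and 0.13.

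The 12 highest and 12 lowest bins were picked by these changes among 1292 bins with the same sign in FitHiChIP, so their values describe and do not test. All had a promoter marked in both cell types, as had 1768 of all 1805 ranked bins. The last bin in was at 3.47 and the next outside at 3.41 on the high side, and at -3.05 and -2.92 on the low side. Of the 12 highest, 11 had no loop in ESC auxin. Their relative change depends on the 1 loop added to each count, so loops and the finite limit of the interval are given instead.

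Maf, a basic leucine zipper transcription factor gene (chr8:115700001-115710000, mm10), had the most NPC auxin loops of the 12. Its bin had 2 MAPS loops in ESC auxin and 49 in NPC auxin, 1 and 23 FitHiChIP loops, and 14 and 99 MAPS loops in the controls. The relative change was 3.47 (95% interval 2.09 to 7.11). NPC auxin was thus above ESC auxin in both callers, and 46 of its 49 loops were also in NPC control. The 49 partners lay 290 to 980 kb away, 37 on the lower and 12 on the higher coordinate side, and none was a promoter bin. Reads over the bin went from 4814 to 12515, 1.07 on the log2 scale per total contacts.

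Gli3, the zinc finger factor at the end of the Hedgehog pathway (bin chr13:15460001-15470000), had 0 loops in ESC auxin and 16 in NPC auxin, 0 and 7 by FitHiChIP, and 0 and 30 in the controls. The interval's lower limit was 1.35. Of the 16 partners, 11 lay 80 to 220 kb downstream, inside the Gli3 gene itself by its RefSeq bounds (chr13:15463723-15730026), and 5 lay 800 to 850 kb away on the other side. The loop with the most contacts joined the promoter to the bin 80 kb inside the gene, with 90 where MAPS expected 42.2, near the minimum ratio of 2.00. Over its expected value the highest was the loop at 840 kb on the other side, with 29 contacts against 3.82.

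Prickle1, a planar cell polarity gene (bin chr15:93590001-93600000), had 0 and 23 MAPS loops after auxin, 1 and 9 by FitHiChIP, and 2 and 36 in the controls (lower limit 1.93). All 23 partners lay on the higher coordinate side at 120 to 810 kb, and 19 of them were called in NPC control and 0 in ESC control. Bmp2, a bone morphogenetic protein ligand (bin chr2:133550001-133560000), had 0 and 17 loops after auxin, 0 and 6 by FitHiChIP, and 1 and 48 in the controls (lower limit 1.45). Its partners lay 210 to 940 kb away on both sides, and none was a promoter bin.

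Ltbp1, which encodes a binding protein of latent TGF-beta, was the one of the 12 whose control change stayed below 1. Its bin had 0 loops in ESC auxin and 19 in NPC auxin, and 12 and 30 in the controls. All 19 loops were in NPC control and 10 of them also in ESC control, so at this promoter the auxin lists were further apart than the controls. Rbms1, an RNA binding protein gene, was similar, with 0 and 22 loops after auxin against 8 and 29 in the controls.

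The rest of the highest were Tshz1 with Zadh2 (0 and 17), Ndufb1 with Cpsf2 (0 and 22), LOC115489044 with Zfand5 (0 and 22), Ppp1r12a (0 and 17), Sdk2 (0 and 16) and Phlpp1 (0 and 16). Sdk2 encodes a neuronal adhesion protein and Ppp1r12a a myosin phosphatase subunit. The Phlpp1 loop with the most contacts, 51, reached the promoter bin of Bcl2, an inhibitor of cell death, 540 kb away. One partner of the Zfand5 bin was the promoter bin of Aldh1a1, a retinaldehyde dehydrogenase. In the controls 11 of the 12 highest were also called higher, against 19.3% of all bins. Together the 12 bins had 256 loops in NPC auxin, of which 182 were in NPC control and 35 in ESC control.

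Among the 12 lowest, Pax2, a paired box gene of the midbrain, kidney and eye, had fewer loops in NPCs with and without auxin. Its bin (chr19:44740001-44750000) had 11 loops in ESC auxin and 1 in NPC auxin, 11 and 1 by FitHiChIP, and 19 and 4 in the controls, a relative change of -3.18 (-9.48 to -1.27). In ESC auxin the bin reached the promoter of Tlx1, a homeobox gene 410 kb away, with 104 contacts where 17.5 were expected, and that of Lbx1. The 1 loop in NPC auxin was at 180 kb, with 67 contacts. Reads over the bin were 9365 and 11350, -0.03 on the log2 scale per total contacts.

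Islr2, which encodes a neuronal membrane protein, kept pace with its list in the controls. Its bin (chr9:58200001-58210000) had 16 loops in ESC auxin and 1 in NPC auxin, 8 and 1 by FitHiChIP, and 9 and 15 in the controls. The relative change was -3.68 (-9.98 to -1.91) after auxin and 0.13 without it. Of the 16 ESC auxin partners, 15 lay on the lower coordinate side, the nearest at 150 kb, and included the promoter bins of Clk3, Arid3b, Ubl7, Sema7a and Cyp11a1. Dtx1, a ubiquitin ligase of the Notch pathway (bin chr5:120710001-120720000), had 11 loops and 1 loop after auxin, 6 and 2 by FitHiChIP, and 7 and 3 in the controls.

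The other bins of the 12 lowest had 10 to 19 loops in ESC auxin. Adam33, a metalloprotease gene (10 and 0 loops), Dnajc22 (10 and 0) and Naglu, a lysosomal enzyme gene (11 and 1), were lower in the controls as well. For Zfp3 (10 and 0), Gm10013 (19 and 2), Igsf21 (12 and 1) and the Pcdhgb1 bin (15 and 1) the control change lay between -0.91 and -0.41. For the Pcdhb16 bin (10 and 0) it was 0.01. Naglu had 1 and 1 loop by FitHiChIP, so for this bin the second caller shows no loss. In the controls 5 of the 12 lowest were also called lower, against 8.81% of all bins. Their 145 ESC auxin loops had 64 partners that were promoter bins, against 15 for the 256 NPC auxin loops of the 12 highest. Reads over the bin differed by -0.33 to 0.40 (log2) at 10 of the lowest bins and by 0.55 to 1.28 at 5 of the highest.

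**Figure D3:**
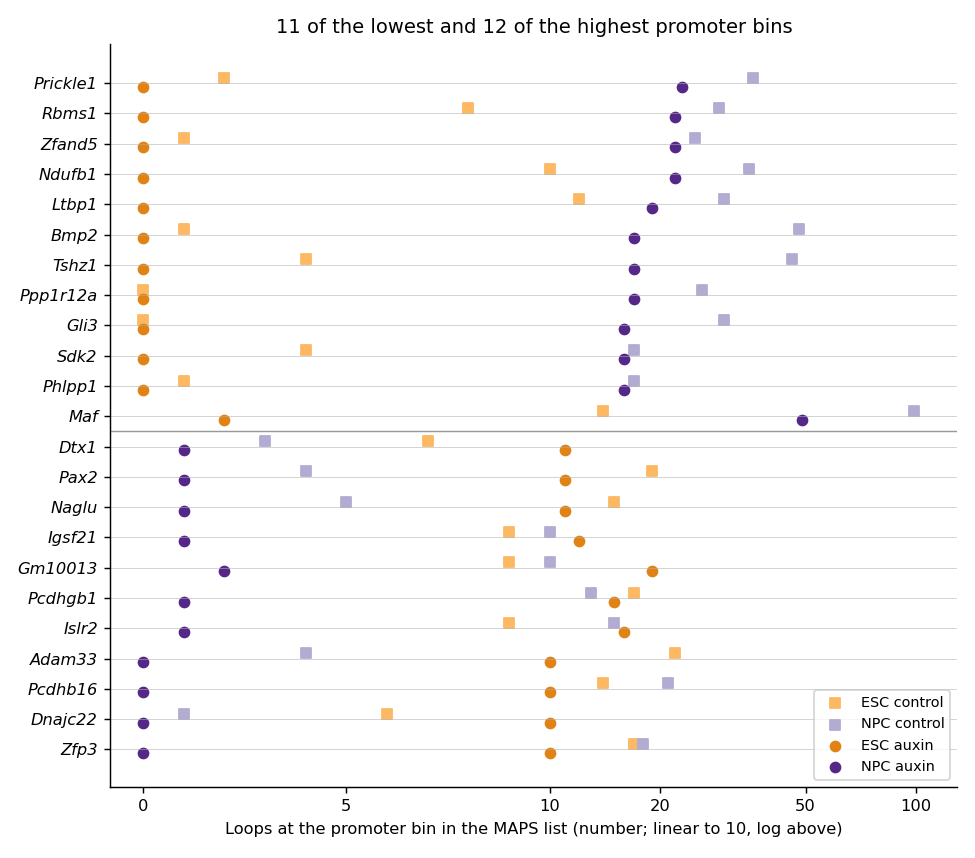
MAPS loops at 11 of the 12 lowest (below the line) and the 12 highest (above it) promoter bins, named by 1 gene each, in ESC auxin, NPC auxin, ESC control and NPC control. The horizontal axis is linear to 10 loops and logarithmic above. Above the line the NPC control squares lie to the right of the NPC auxin points, as for Maf with 99 against 49 loops. Below it the controls of Zfp3, Pcdhb16 and Islr2 do not follow the drop from ESC auxin to NPC auxin.

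The 250 bases before the start of Gli3 and Prickle1 (higher) and of Pax2 and Dtx1 (lower) are shown because H3K4me3 and CpG content go together at vertebrate promoters. They are RefSeq sequences (GRCm38.p6, the assembly of mm10), 5′ to 3′ on the strand of the gene, with CpG dinucleotides in capitals.
Gli3, chr13:15463473-15463722, plus strand: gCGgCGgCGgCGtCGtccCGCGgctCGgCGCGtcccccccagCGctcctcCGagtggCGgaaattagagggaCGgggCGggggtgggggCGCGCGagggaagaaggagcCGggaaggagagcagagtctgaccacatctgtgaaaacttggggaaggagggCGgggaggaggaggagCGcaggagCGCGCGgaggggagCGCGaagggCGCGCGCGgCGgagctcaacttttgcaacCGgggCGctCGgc
Prickle1, chr15:93595903-93596152, minus strand: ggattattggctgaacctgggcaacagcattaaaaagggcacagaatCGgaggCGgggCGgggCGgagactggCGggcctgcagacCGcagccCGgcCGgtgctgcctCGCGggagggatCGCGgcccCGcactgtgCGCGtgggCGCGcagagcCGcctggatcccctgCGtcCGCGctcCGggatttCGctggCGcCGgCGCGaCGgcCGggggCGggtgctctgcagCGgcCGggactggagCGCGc
Pax2, chr19:44746351-44746600, plus strand: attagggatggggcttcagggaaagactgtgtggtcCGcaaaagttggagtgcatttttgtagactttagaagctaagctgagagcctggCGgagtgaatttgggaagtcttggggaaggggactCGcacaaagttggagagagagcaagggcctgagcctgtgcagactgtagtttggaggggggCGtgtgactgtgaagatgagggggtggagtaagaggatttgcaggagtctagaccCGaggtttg
Dtx1, chr5:120711670-120711919, minus strand: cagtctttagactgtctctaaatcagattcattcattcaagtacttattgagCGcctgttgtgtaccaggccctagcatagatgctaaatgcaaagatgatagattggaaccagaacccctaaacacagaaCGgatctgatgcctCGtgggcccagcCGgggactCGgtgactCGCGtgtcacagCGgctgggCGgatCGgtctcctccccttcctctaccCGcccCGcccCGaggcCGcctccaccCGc
Gli3 and Prickle1 each had 34 CpG in these 250 bases, Dtx1 15 and Pax2, in the window of 1 of its 3 starts, 5. The sequences shown are examples and do not stand for a clean split. Other named bins went the same way, such as Sdk2 (higher) with 38 CpG and Gm10013 (lower) with 0. Others did not: Ltbp1 and Rbms1 (higher) had 12 and 19 in 1 window each, and Zfp3 and Naglu (lower) 27 and 20. The higher and lower named bins therefore overlapped in CpG number.

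Over all RefSeq windows of 250 bases before and 50 after a start, the median CpG number was 26 for 371 windows in higher bins, 20 for 239 in lower bins, 22 for all 1912 in ranked bins and 13 for all 21263 of protein-coding genes. The medians of GC content were 64.3%, 61%, 62.3% and 56.3% in the same order. The CTCF core motif CCNCNAGNNGGC, searched on both strands, was in 4.04% of the windows in higher bins, 4.18% in lower bins, 4.50% in ranked bins and 2.96% of all. None of the 4 sequences shown holds it.

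**Figure D4:**
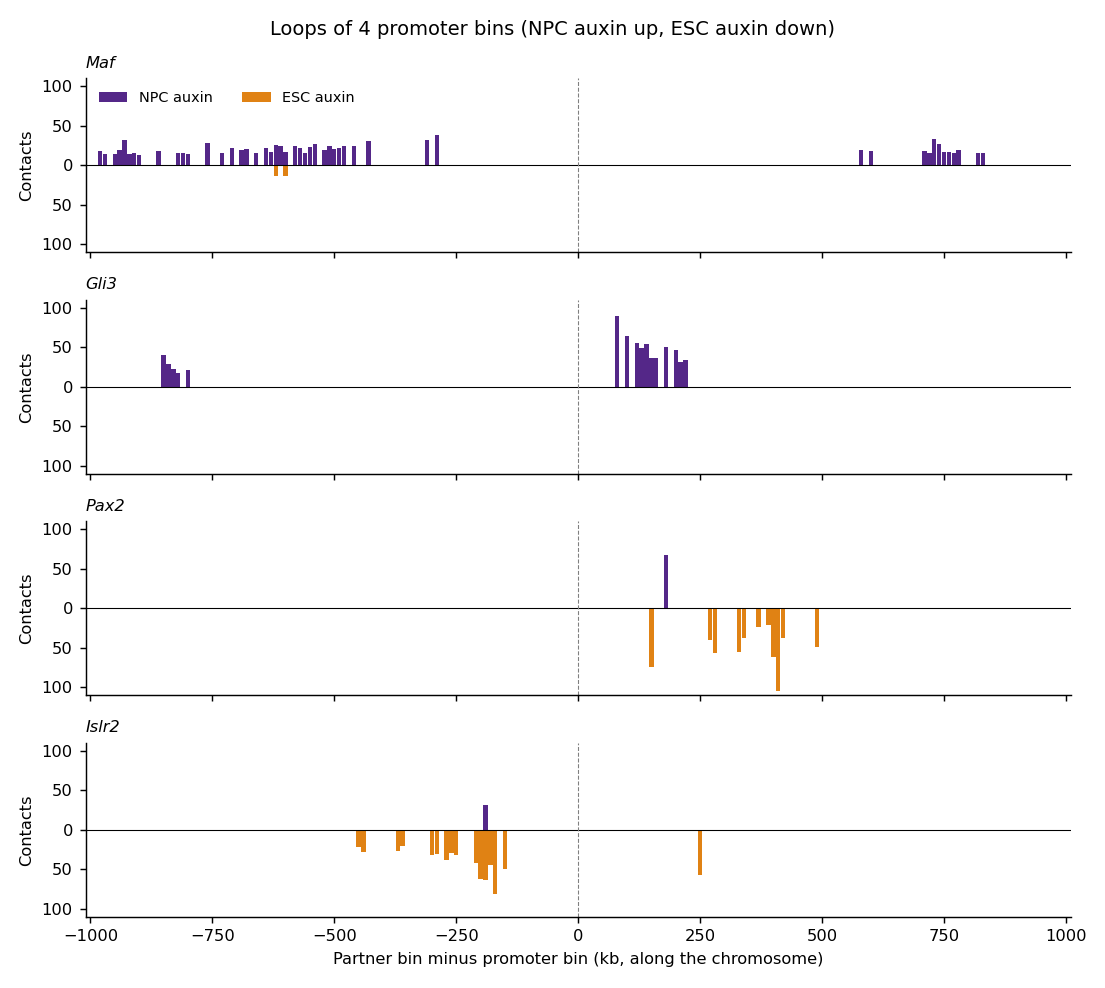
Loops of the Maf, Gli3, Pax2 and Islr2 promoter bins in the MAPS auxin lists, by distance of the partner bin from the promoter bin along the chromosome (horizontal axis, kb) and contacts (vertical axis, NPC auxin upwards, ESC auxin downwards). Maf and Gli3 bars are nearly all upwards, with Maf partners from 290 to 980 kb, and Pax2 and Islr2 bars nearly all downwards.

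Gene lists were chosen with earlier results of these data known, so their counts and medians describe and do not test. Over all 10579 protein-coding genes with a loop in either auxin list the median relative change was -0.01. Of the 4526 genes with at least 5 loops, 20.1% were called higher and 18.4% lower in NPC auxin. By FitHiChIP the shares were 25.1% and 7.51% of 3501 genes.

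The clustered protocadherins, adhesion proteins of neurons whose promoters are chosen singly through contacts with distant enhancers, were the list with the lowest median. Their promoter bins had 231 distinct loops in ESC auxin and 114 in NPC auxin. All were placed by a gene boundary, and Pcdhga1, Pcdhga2 and Pcdhga6 fell in the bin of the common gene end, with 0 loops in both lists. Of 48 genes with at least 5 loops, 44 were called lower and 0 higher, and the median over 52 genes with a loop was -1.59. Many of these genes share bins, and over distinct bins 36 of 37 had fewer loops in NPC auxin. FitHiChIP gave 167 and 74 distinct loops with a median of -1.13, against 0.46 over all genes. The control lists had 263 and 244, with 14 of 34 bins called lower against 31 of the same 34 after auxin.

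Seen as 1 region (chr18:36930001-37850000, from the first alpha bin to the bin of the common gene end of the gamma cluster), the protocadherin clusters had 243 loops in ESC auxin and 120 in NPC auxin. In ESC auxin 190 loops stayed inside the region, and in NPC auxin 70. The controls had 280 and 278 loops, of which 229 and 192 stayed inside. The alpha cluster went from 90 to 39 loops, the beta cluster from 135 to 45 and the gamma cluster from 144 to 70 after auxin, so all 3 were lower. In the controls they went from 90 to 58, from 160 to 157 and from 138 to 141. The bin of Pcdhb16, Pcdhb17 and Pcdhb18 had 10 loops in ESC auxin, 8 of them with other protocadherin promoter bins, and 0 in NPC auxin. Pcdhga4, Pcdhgb1 and Pcdhgb2 share a bin that had 15 loops and 1. Reads over the promoter bins, per total contacts, were also lower in NPC auxin, by a median of -0.37 on the log2 scale over 29 bins, and their part in the loss was not tested.

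The Hox genes, which set position along the body axis, divided by cluster. Around the HoxD cluster there were 49 loops in ESC auxin and 128 in NPC auxin, and around HoxA 55 and 137. HoxB had 139 and 233, and HoxC 92 and 139, close to the ratio of the whole lists. The controls had 139 and 293 at HoxD, 144 and 328 at HoxA, 200 and 362 at HoxB, and 138 and 172 at HoxC. None of the MAPS auxin loops at HoxA, HoxC and HoxD, all over at least 20 kb, joined bins of the same cluster, and 5 in ESC auxin and 1 in NPC auxin did at HoxB. FitHiChIP did list loops inside these clusters. They numbered 0 in ESC auxin and 6 in NPC auxin at HoxA, 9 and 4 at HoxB, 2 and 0 at HoxC and 3 and 1 at HoxD. Hoxd13 had 0 and 9 loops, Hoxd11 2 and 17, and Hoxa3 with Hoxa7 1 and 13, while Hoxa13 had 8 and 7. Of 11 HoxA genes 5 were called higher, of 9 HoxD genes 4, and 0 in HoxB and HoxC, against 20.1% of all genes by MAPS. Some of these genes share bins, and over distinct bins 3 of 8 were called higher in HoxA and 3 of 8 in HoxD. FitHiChIP called 1 of 11 HoxA genes and 1 of 7 HoxD genes higher, against 25.1% of all genes, so most of these calls rest on MAPS. It listed 6 and 9 loops for Hoxd13, 7 and 14 for Hoxd11 and 3 and 6 for Hoxa3 with Hoxa7.

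Neural progenitor genes were called in both directions, as were genes in general. The list had 167 loops in ESC auxin and 324 in NPC auxin, and of 21 genes 8 were called higher and 3 lower. Of all genes with at least 5 loops 20.1% were called higher and 18.4% lower, so lower calls were not more common in this list. Sox21 (0 and 15) and Sox11 (0 and 14), genes of SOX transcription factors, and Nr2f1 (0 and 8) had no loop in ESC auxin. The Sox11 bin, like those of Rarb and Klf5 below, was marked as a peak bin only in the NPC lists, and a loop needs a marked bin at 1 end, so in ESC auxin these bins could have loops only to marked partners. Sox4 had 9 and 56 loops. Nes, the intermediate filament gene used as a marker of these cells, had 7 loops and 0, with 8 and 2 in the controls, and Rfx4 had 8 and 2, with 15 and 2 in the controls. Sox1 had 11 and 16, near the ratio of the lists (-0.09).

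Among proneural and Notch pathway genes, 5 of 16 were called higher and 3 lower. Of all genes 20.1% were called higher and 18.4% lower, so the lower calls were near that share. Atoh1, the gene of a basic helix-loop-helix factor, had 0 and 8 loops. Neurog1 had 7 loops and 1, and Neurog3 13 and 4, with 5 and 7 for Neurog1 and 10 and 4 for Neurog3 in the controls. Id2, an inhibitor of such factors, had 3 and 28. Of the retinoic acid genes 4 of 10 were called higher and 0 lower. Rdh10, which makes retinaldehyde, had 4 and 30 loops, and the receptor gene Rarb 0 and 9, with 0 and 26 in the controls.

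Of the Hedgehog and Wnt pathway genes 8 of 20 were called higher and 4 lower, beside 20.1% and 18.4% of all genes. Axin2, a Wnt target and inhibitor, had 2 loops in ESC auxin and 39 in NPC auxin (0 and 9 by FitHiChIP, 9 and 43 in the controls). Shh, the Hedgehog ligand expressed by the floor plate, had 8 and 29, while the ligand genes Ihh (8 and 1) and Wnt3 (12 and 3) were called lower. In the controls Ihh had 5 and 10 loops and Wnt3 15 and 11. In the FGF and BMP list 6 of 16 were called higher and 3 lower. The lower calls of both lists were near the share over all genes. Fgfr2, an FGF receptor gene, had 2 and 34 loops, with 21 and 58 in the controls. Etv4 had 7 and 0, but 4 and 7 in the controls and 0 and 0 by FitHiChIP.

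Neural patterning homeobox genes leaned down, with a median of -0.43 over 47 genes and 11 of 37 called lower against 5 higher. Of all genes 18.4% were called lower and 20.1% higher. Beside Pax2, Irx6 had 9 loops and 1 and Nkx6-2 18 and 3, with 5 and 6 and 16 and 8 in the controls. Six4 (1 and 15), Dlx5 (0 and 5) and Evx2 (1 and 9) were higher. FitHiChIP gave a median of -0.49, against 0.46 over all genes. Reads over the bins, per total contacts, were higher in NPC auxin at 33 of 40, near the share over all genes (4440 of 5386).

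Of 22 core pluripotency genes 13 had a loop in either auxin list. They had 46 in ESC auxin and 63 in NPC auxin, with 0 of 8 called higher and 1 lower, beside 20.1% and 18.4% of all genes. Pou5f1 had 2 and 3 loops, and Sox2, which neural cells also express, 13 and 18. The Kruppel-like and naive state factors had 29 and 78, and Klf5 0 and 7. For the lineage lists outside the neural path, mesoderm and endoderm genes had 142 and 215 loops (median -0.27, Foxa1 19 and 45, Gsc 7 and 0), trophoblast genes 48 and 55 (-0.21, Cdx2 20 and 14) and neural crest genes 25 and 67 (0.30, Foxd3 2 and 18). In the controls Gsc had 7 and 10 loops. The trophoblast median changed sign in 2 and the neural crest median in 1 of 7 other settings. Neuron genes had 25 and 26, glia genes 45 and 50, Zic genes 13 and 16, cadherins outside the clusters 23 and 27, CTCF and cohesin genes 21 and 31, and housekeeping genes 20 and 22.

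**Figure D5:**
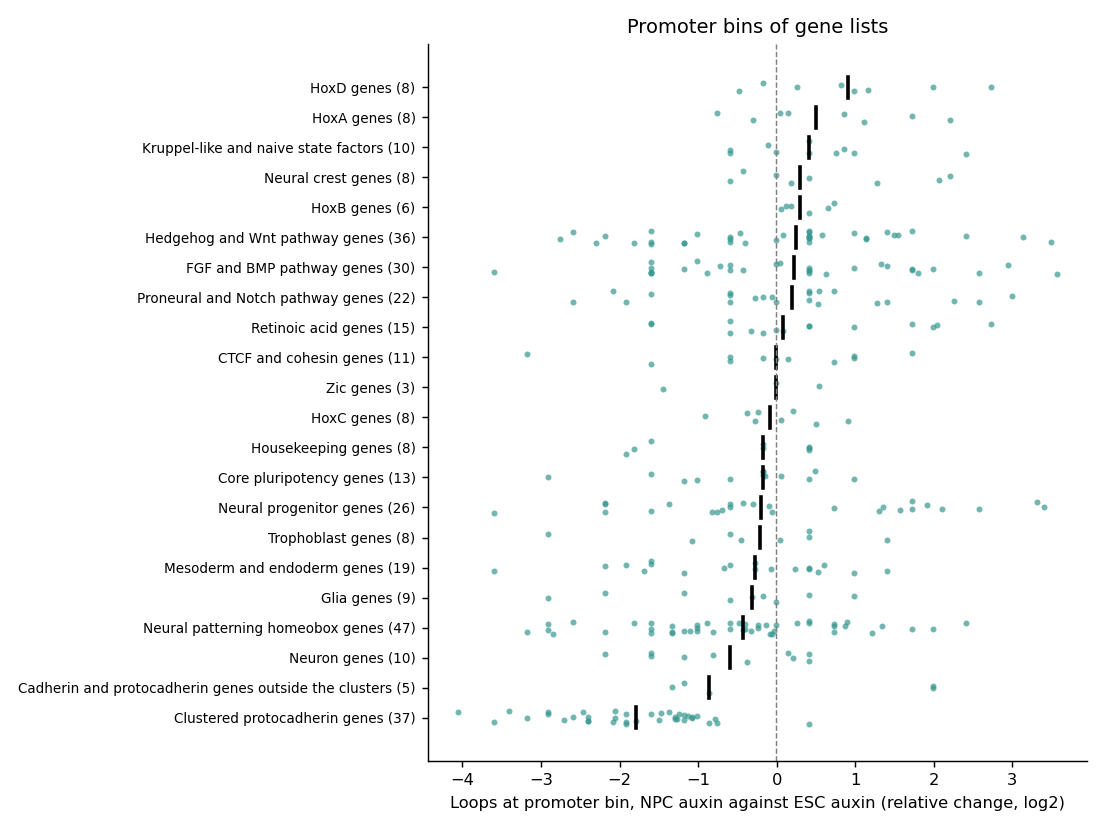
Relative change in loops, NPC auxin against ESC auxin, at the promoter bins of each gene list (points, 1 per distinct bin with a loop, numbers of bins in brackets). Black bars are medians and the dashed line is the median of all protein-coding genes, -0.01. The clustered protocadherins lie lowest, with 36 of 37 bins having fewer loops in NPC auxin.

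Loops with promoter bins at both anchors were 4704 or 11.3% of NPC auxin and 3481 or 12.6% of ESC auxin. The 8 with the lowest FDR on each side, absent from the other cell type in both callers, were chosen for that difference. In ESC auxin they included pairs of homeobox and paired box genes. Nkx2-1 and Pax9, 160 kb apart, had 230 contacts where MAPS expected 46.0. Nkx2-2 and Pax1, 180 kb apart, had 122 against 24.6, En2 and Shh 98 against 19.0 over 300 kb, and Gata3 and Sfmbt2 65 against 12.8 over 500 kb. These loops and Pax2 with Tlx1 were in ESC control and not in NPC control, while Ltbp4 with Sptbn4 and the Rac3 bin with Hmga1b were in both controls.

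The 8 loops of NPC auxin joined other genes. Chic2 and Pdgfra, the gene of a growth factor receptor of glial precursors, had 229 contacts against 89.6 expected over 110 kb. The Fbh1 bin and Itga8, an integrin gene, had 60 against 9.09 over 530 kb. Both were in NPC control and not ESC control, as was Purb with Ccm2. Sema4c with Cox5b (164 contacts), the Zfp319 bin with Cfap20 (249) and Suds3 with Pebp1 (105) were in both controls. Cpd with Blmh (178) and Pdlim4 with P4ha2 (279) were in neither.

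At the 10440 shared loops contact counts were compared directly. The median log2 ratio of NPC auxin to ESC auxin counts was 0.25 (quartiles -0.06 and 0.58), beside 0.31 for the ratio of total contacts. After centring on that median, 296 loops (2.84%) were higher by at least 1 and 157 (1.5%) lower. Among shared promoter pairs with at least 40 contacts over both lists, the 5 with the largest losses were led by Nkx2-2 and Foxa2, the forkhead factor of floor plate and endoderm, which went from 73 contacts to 26 over 860 kb while the expected number went from 6.75 to 11.5. Pax1 and Foxa2 went from 82 to 39, the Cyb5d1 bin and Efnb3 from 69 to 33, Pcdha4 and Pcdhgb4 from 29 to 14 and Stac3 and Hsd17b6 from 34 to 18. The 2 pairs of Foxa2 and the Cyb5d1 pair were also listed in ESC control, with 48, 66 and 44 contacts. Pax1 with Foxa2 was listed in NPC control too, with 26. The largest gains were Pdcd2 with Chd1 (44 to 192), the Trappc11 bin with Ing2 (47 to 200), Neo1, a receptor of axon guidance cues, with Adpgk (29 to 120), the Mipol1 bin with Foxa1 (31 to 128) and Setd7 with Maml3 (18 to 70). For these 5 the expected number rose too, from 18.6 to 50.8 for Pdcd2 with Chd1, so contacts over expected rose 1.31 to 1.79 fold. These contact changes were chosen for their size.

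At 5 promoter bins the cell types differed by at least 1 in opposite directions with and without auxin. Dnah2 had 10 loops in ESC auxin and 4 in NPC auxin, but 3 and 11 in the controls, Sstr4 had 6 and 4 but 3 and 14, and Lmo4, a LIM domain gene, 10 and 7 but 6 and 25. Calb2 (3 and 12, but 8 and 5) and Syce1 (1 and 11, but 13 and 7) went the reverse way. By FitHiChIP Lmo4 had 3 and 14 loops after auxin and Dnah2 4 and 4, so for both the drop rests on the caller. The difference between treatments was not tested at these bins.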

How the data were processed

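Per the labels, H3K4me3 PLAC-seq was done in 14 samples of F123 cells in 7 groups, with 2 samples per group, and the 8 samples of the 4 ESC and NPC groups enter here. BWA, Picard and mm10 are named, without versions, in the submitters' processing notes, and the callers' settings are not given in the sources used here. Not used here were 6 samples of 3 dCas9 groups. Per the file headers, the authors' MAPS lists give for each pair of 10 kb bins a contact count, the expected background signal, the ratio of count to background, an FDR (p-value scale) and H3K4me3 peak marks. FitHiChIP lines, as deposited, add the reads covering each bin and give a q-value and an expected fraction of all contacts. MAPS loops had 12 or more contacts, a ratio from 2.00 upwards and distances of 20 to 1000 kb on 19 autosomes. FitHiChIP distances ran to 2000 kb on 21 chromosomes. No loop lacked a peak bin at both of its ends.

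Every list stands for 1 group, so no p-value was computed. A promoter bin was the 10 kb bin of a RefSeq start (GRCm38.p6, 17492 genes) or, for 2951 genes without one, a gene boundary in a marked bin, start or end, and 1890 genes had several candidate bins. Relative changes used a pseudocount of 1 and bins with at least 10 loops (5 for gene lists). Intervals are exact 95% Clopper-Pearson intervals. The reads were scaled by FitHiChIP's total contacts, obtained from the deposited expected contacts and fractions.

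The members, gene lists and rules were chosen with earlier results of these data known. Named were the 12 lowest and 12 highest promoter bins with the same sign in FitHiChIP, extreme members of each gene list with at least 5 loops, and members that account for a list. Named too were 8 promoter pairs of each list by FDR, and 5 shared pairs by contact change in each direction with at least 40 contacts over both lists. Bins with opposite calls in the controls, the Maf partners and members cited outside these rules were picked after their values were seen. Results for 3 genes, 1 of them at one of the 12 lowest bins, are not reported here. Alternatives were the second caller, stricter FDR and count minimums, depth scaling, marked bins, neighbouring bins and each autosome left out. Relative change and its interval were run on simulated independent counts per bin with known changes. Loops of neighbouring bins in these lists are not independent, so that run does not check the calls made here. Python 3.11.15, pandas 2.3.3, numpy 2.4.6, scipy 1.17.1 and matplotlib 3.10.9 were used.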

Additional observations from a re-analysis of the deposited data

Results flagged for a closer look

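At 5 promoter bins the relative change from ESC to NPC reached 1 in size in opposite directions with and without auxin. It was -1.73 after auxin and 1.04 in the controls for Dnah2, -1.08 and 1.36 for Sstr4, and -1.05 and 1.35 for Lmo4. It was 1.11 and -1.13 for Calb2, and 1.99 and -1.35 for Syce1. The counting interval of the auxin change spanned both signs at Sstr4, Lmo4 and Calb2. The bins were picked for this contrast among 1805, each comparison rests on 1 list per group with few loops, and the difference between the treatments was not tested.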

How the results depend on the processing

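No paired analysis was possible because each group has 1 list per caller, with no columns for its 2 samples. With the FitHiChIP lists, the number of NPC auxin loops was 109.4% of ESC auxin, the shared loops 46.4% of ESC auxin and 42.4% of NPC auxin, the median distance difference -30 kb, the difference in loops with both anchors in peak bins 10.7 points, loops of 500 kb and over 105.2%, and promoter bins 185 higher and 74 lower. Outside the crowded windows of that caller, a setting chosen after seeing the data, the same values were 129.6%, 42.9% and 33.1%, with 4.10 points, 157.2%, and 121 higher and 73 lower. The median difference there was 70 kb, in the direction of the MAPS lists and the reverse of that caller's whole lists. Both sets of FitHiChIP values include loops of up to 2000 kb, where MAPS ends at 1000 kb. An FDR under 0.0001 gave 172.3% loops, shares of 38.8% and 22.5%, and 362.4% long loops. A count of at least 20 gave 143.4%, 38.9%, 27.1%, 30 kb and 380.9%. With the count minimum of NPC auxin scaled by total contacts the values were 136.7%, 36.8%, 26.9%, -8.36 points and 223.7%. With peak bins marked in both cell types they were 165.8%, 41.1% and -8.27 points. Leaving out 1 autosome at a time gave 148.9 to 155.0% loops. Anchors allowed to differ by 1 bin gave shares of 62.4% and 48.1%. Counting neighbouring bins gave 537 higher and 606 lower promoter bins, and at least 20 loops gave 102 and 38. Higher bins were 59.1% of the called ones, 71.4% by FitHiChIP, 47.0% with neighbouring bins and 72.9% with at least 20 loops, so the split depends on these choices. The cause of these shifts was not tested, apart from the smaller number of bins or loops a stricter setting leaves. The changes of the named bins kept their direction under the settings run, 127 within and 17 outside their counting interval. These bins were picked with the same sign in FitHiChIP, so the setting with that caller's lists could not reverse them. The setting outside the crowded windows draws on the same lists. Of the 22 list medians, 11 kept their sign in the 7 settings run for each and 11 changed it in at least 1 (19 of 154 cases), among them neural progenitor genes (-0.61 to 0.29) and cadherins outside the clusters (-1.14 to 0.57). The clustered protocadherins stayed between -1.71 and -1.13. Contacts that fall short of a list's minimum count cannot be told from contacts that are absent.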

Other observations

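Members of the lists that the text above leaves out showed further contrasts between the auxin lists. In the FGF and BMP list Spry2, a feedback inhibitor of receptor kinases, had 7 loops in ESC auxin and 41 in NPC auxin, and Tgfb2 had 4 and 18. Nr2f2 (6 and 25), Otx1 (7 and 30) and Meis1 (3 and 25), genes of transcription factors of the early brain, had more loops in NPC auxin than the ratio of the lists gives, by 1.30, 1.36 and 2.11 on the log2 scale. Otx1 had 4 and 9 loops in the controls, so its NPC auxin count was above that of NPC control. Ctcfl, the germ line paralogue of CTCF, had 5 loops in ESC auxin and 0 in NPC auxin, with 3 and 1 in the controls, and FitHiChIP listed 0 in both. The genes of this paragraph were picked after their values were seen.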
